A study of Mus musculus with 6 samples.

Results

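Desmosomal cadherins and plaque proteins were followed in newborn mouse epidermis with and without Znf750, as 10 genes of the 55487 in the deposited files. They were taken by symbol: the desmogleins Dsg1a, Dsg1b, Dsg2 and Dsg3, the desmocollins Dsc1, Dsc2 and Dsc3, and the plaque genes Pkp1, Dsp and Jup. All 10 passed the filter on low values, which asks for 1 FPKM or more in 3 or more libraries. FPKM counts fragments relative to transcript length and to the mapped total of a library, so levels of different genes can be set side by side per length.

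The study holds 6 libraries of mouse back-skin epidermis at postnatal day 0, 3 labelled Control and 3 labelled Znf750 cKO, written Znf750_cKO below. The epidermis was lifted from the dermis with dispase, dispersed with trypsin and extracted without a named cell sort. The labels call the samples epidermal cells and give no strain, sex, Cre driver or allele, and they do not say whether replicates are separate pups. The p-values therefore measure the spread between these libraries, which may be technical.

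Desmosomes are the adhesive plaques that rivet neighbouring keratinocytes together and anchor their keratin filaments. Desmogleins and desmocollins are cadherins that bind across the gap between cells. Inside the cell their tails bind plakoglobin (Jup) and plakophilins, which attach desmoplakin (Dsp), and desmoplakin binds keratin. In mouse and human epidermis the cadherins are layered: Dsg2, Dsg3, Dsc2 and Dsc3 are typical of the lower layers, and Dsg1 and Dsc1 of the upper ones. Antibodies to Dsg3 and Dsg1 cause the blistering diseases pemphigus vulgaris and pemphigus foliaceus.

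The libraries held an estimated 21.4 to 35.3 M reads (megareads), read from the steps in low FPKM values. The targeted gene checks the labels. Zfp750, the mouse symbol of Znf750, lies on the minus strand of chromosome 11 (121510978 to 121519333, GRCm38). It measured 44.8, 32.0 and 34.9 FPKM in the control libraries, against 0.99, 0.83 and 1.47 in the Znf750_cKO libraries (limma adjusted p = 4.62e-05). Keratinocyte markers were abundant in both groups, with Krt5 at 6275 to 6973 FPKM and Krt10 at 7397 to 14585 over the 6 libraries. Across all genes, 577 of 13688 tested (4.22%) changed at a limma adjusted p under 0.05, 152 up (1.11%) and 425 down (3.1%). That split was 258 up and 295 down after median-ratio scaling, and 201 up and 218 down after quantile normalization.

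Among the 10 desmosomal genes, Dsg3 rose about 2-fold in Znf750_cKO epidermis, and the other 9 did not pass the threshold. The count of 1 riser in 10 stands beside 1.11% of all tested genes, and 0 of the 10 fell. The plaque was nearly level: Pkp1, Dsp and Jup had mean FPKM ratios of 1.05 to 1.10 between Znf750_cKO and control. Dsc1 and Dsc2 were also higher in each Znf750_cKO library than in any control library, without passing the test. The 10 genes had a median log2 change of 0.11, against -0.08 over all tested genes, and 8 of them had a positive change, against 37.8% of tested genes. That all-gene median was 0.0004 after median-ratio scaling and 0.0143 after quantile normalization. The shares of all genes that were positive or without overlap hold for FPKM as deposited and were not computed after scaling. In bulk samples, more cells of a layer and more RNA per cell cannot be told apart.

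**Figure D1:**
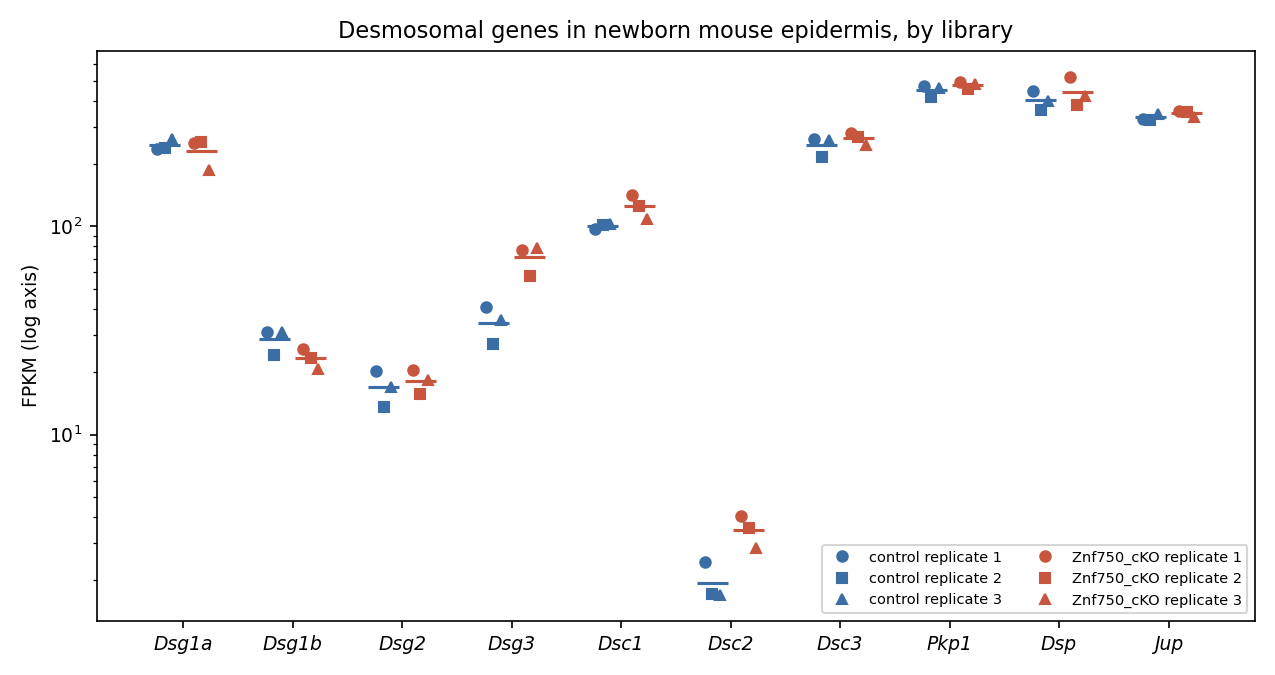
FPKM (log axis) of the 10 desmosomal genes in each library, with symbols for replicates 1 to 3, control in blue and Znf750_cKO in red, and bars at the group means. Dsg3, Dsc1 and Dsc2 are the genes whose groups do not overlap, and the plaque genes Pkp1, Dsp and Jup are the most abundant.

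In control epidermis the plaque genes were the most abundant. Pkp1 averaged 450 FPKM, Dsp 402 and Jup 334, followed by Dsc3 at 246 and Dsg1a at 245. Below them came Dsc1 at 100.2, Dsg3 at 34.5, Dsg1b at 28.7, Dsg2 at 16.9 and Dsc2 at 1.95 FPKM. The ranges of 3 neighbouring pairs overlapped between control libraries: Pkp1 with Dsp, Dsc3 with Dsg1a, and Dsg3 with Dsg1b. The order of means was the same in Znf750_cKO, but there the Dsg3 range lay wholly above that of Dsg1b.

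Dsg3 is the desmoglein of basal and lower spinous keratinocytes. It measured 41.0, 27.1 and 35.3 FPKM in control replicates 1 to 3, and 76.8, 57.5 and 78.3 FPKM in Znf750_cKO replicates 1 to 3. The lowest Znf750_cKO library exceeded the highest control library, and replicate 2 was the lowest of both groups. The means were 34.5 ± 6.97 and 70.8 ± 11.6 FPKM (SD, n = 3 per group). The log2 change was 1.02 (SE 0.18, 95% interval 0.61 to 1.44, limma adjusted p = 0.0239). With each library left out in turn, the call held in 2 of 6 fits, namely when control replicate 1 (adjusted p = 0.0464) or Znf750_cKO replicate 2 (0.0306) was dropped. Dropping control replicate 2 gave an adjusted p of 0.0662, and dropping control replicate 3 gave 0.0669. Dropping Znf750_cKO replicate 1 gave 0.108, replicate 3 gave 0.0646, and replicate 3 of both groups together 0.0879. The log2 change stayed between 0.87 and 1.17 in all of these fits.

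Dsg1 is the main desmoglein of the differentiating layers, and the mouse carries it in several neighbouring copies. Dsg1a measured 235, 239 and 261 FPKM in the control libraries, against 251, 254 and 186 in the Znf750_cKO libraries, so that a single Znf750_cKO library, replicate 3, lay below the control range. Its log2 change was -0.10 (95% interval -0.43 to 0.22, limma adjusted p = 0.744). That interval spans 0.743-fold to 1.17-fold, so a 2-fold change of Dsg1a like that of Dsg3 lies outside it. Without Znf750_cKO replicate 3 the log2 change was 0.04, and without replicate 3 of both groups 0.09, neither past the threshold.

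Dsg1b was far less abundant than Dsg1a. It measured 30.9, 24.2 and 31.0 FPKM in the control libraries, against 25.9, 23.2 and 20.6 in the Znf750_cKO libraries, and the groups overlapped (log2 change -0.29, 95% interval -0.61 to 0.02, limma adjusted p = 0.271). Dsg1c, a copy outside the 10, stayed under 1 FPKM in all libraries, at 0.36 to 0.85. The copies are alike enough to share reads. Of the 100-base stretches in the Dsg1a transcript, the length of a read here, 24.6% also occur exactly in Dsg1b or Dsg1c, and of those in Dsg1b 32.8% occur in the others. Levels of single copies are therefore uncertain, while their sum is less affected by the split. The summed copies gave 266, 264 and 293 FPKM in control and 277, 278 and 207 in Znf750_cKO (log2 change -0.12, 95% interval -0.44 to 0.20, limma adjusted p = 0.678). Dsg3, Pkp1, Jup and the 3 desmocollins share 0 such stretches with any other annotated gene.

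Dsg2, the desmoglein of simple epithelia and of the basal layer and hair follicle, measured 20.1, 13.6 and 17.0 FPKM in the control libraries. In Znf750_cKO it stood at 20.4, 15.7 and 18.3 FPKM. The groups overlapped almost fully (log2 change 0.11, 95% interval -0.27 to 0.48, limma adjusted p = 0.776), and replicate 2 was again the lowest of each. Dsg3 and Dsg2 lie next to each other and kept a nearly fixed ratio within each group. Dsg3 was 2.04, 1.997 and 2.08 times Dsg2 in the control libraries and 3.76, 3.66 and 4.28 times in the Znf750_cKO libraries. This ratio does not depend on scaling between libraries. It was not a planned ratio, and it restates the Dsg3 difference beside Dsg2, which did not pass the threshold. The ratio was not tested, since 3 against 3 libraries cannot give an exact two-sided permutation p under 0.1.

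The makeup of the desmoglein pool differed in this direction too. Dsg3 made up 12.5%, 8.91% and 10.2% of summed desmoglein FPKM in control, and 20.5%, 16.4% and 25.8% in Znf750_cKO. The share of Dsg1a was 71.7%, 78.5% and 75.7% in control against 66.9%, 72.4% and 61.2% in Znf750_cKO, and these ranges overlap. The ratio of Dsg3 to the summed Dsg1 copies was 0.126 ± 0.026 in control and 0.287 ± 0.087 in Znf750_cKO (SD, n = 3), with groups that do not overlap. The total of desmoglein FPKM was 326 ± 20.5 in control and 343 ± 36.5 in Znf750_cKO. These shares restate the Dsg3 difference within a library and are given with no test.

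**Figure D2:**
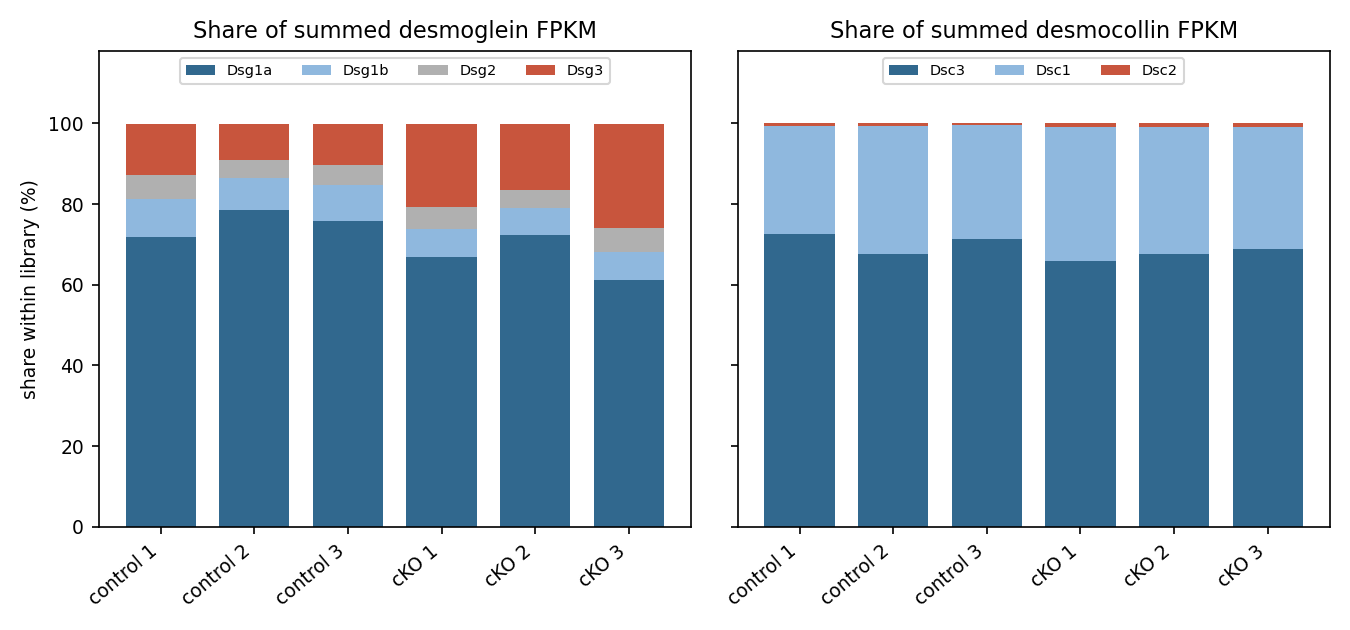
Share (%) of each desmoglein in summed desmoglein FPKM (left) and of each desmocollin in summed desmocollin FPKM (right), 1 bar per library, control 1 to 3 and Znf750_cKO (cKO) 1 to 3. The Dsg3 share is 8.91% to 12.5% in control and 16.4% to 25.8% in Znf750_cKO, while Dsc3 stays between 65.9% and 72.6% in all 6; Dsg1c and Dsg4 together are too small to be drawn.

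Of the desmocollins, Dsc3 is the form of the lower layers and was the most abundant. It measured 263, 216 and 260 FPKM in the control libraries, against 281, 268 and 247 in the Znf750_cKO libraries. The groups overlapped through Znf750_cKO replicate 3 (log2 change 0.11, 95% interval -0.16 to 0.38, limma adjusted p = 0.644). Dsc3, unlike Dsg3, thus had an interval that holds no 2-fold change, although both are named for the same layers.

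Dsc1, the desmocollin of the upper layers, was the steadiest cadherin in control, at 96.8, 101.6 and 102.2 FPKM. It stood at 141.7, 124.6 and 108.5 FPKM in Znf750_cKO. The groups did not overlap, but the Znf750_cKO libraries were spread over a range wider than the gap (log2 change 0.31, 95% interval 0.04 to 0.58, limma adjusted p = 0.184).

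Dsc2, the broadly expressed desmocollin of simple epithelia, was near the filter. It measured 2.43, 1.71 and 1.70 FPKM in the control libraries, against 4.05, 3.56 and 2.84 in the Znf750_cKO libraries, a 1.79-fold ratio of means. The groups did not overlap, and the log2 change of 0.61 (95% interval 0.19 to 1.02, limma adjusted p = 0.107) understates this ratio, since 1 is added to small values. It was 0.81 with 0.1 added instead (adjusted p = 0.11). An estimated 166 to 647 reads lie behind each Dsc2 value, against 3548 to 16557 for Dsg3, so counting error alone is about 7.77% for the lowest Dsc2 value and 1.68% for the lowest Dsg3 value.

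Within the desmocollin pool Dsc2 stayed a trace form, at 0.468% to 0.672% in control and 0.793% to 0.949% in Znf750_cKO. The ratio of Dsc3 to Dsc1 was 2.46 ± 0.30 in control against 2.14 ± 0.14 in Znf750_cKO, and the groups overlapped. So 3 of the 10 genes, Dsg3, Dsc1 and Dsc2, were higher in Znf750_cKO without overlap, beside 8.28% of tested genes. The same 3 had an unadjusted limma p under 0.05, beside 21.3% of tested genes in either direction and 5.94% in the higher direction alone. None of the 10 was lower without overlap, which held for 19.7% of tested genes.

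Of the plaque genes, Jup and Pkp1 varied little between libraries. Jup, or plakoglobin, links both cadherin types to desmoplakin and also takes part in adherens junctions. It measured 328, 325 and 348 FPKM in the control libraries, against 358, 356 and 334 in the Znf750_cKO libraries (log2 change 0.07, 95% interval -0.15 to 0.29, limma adjusted p = 0.759). Pkp1, the plakophilin of suprabasal desmosomes, measured 473, 416 and 460 FPKM in the control libraries, against 492, 456 and 482 in the Znf750_cKO libraries (log2 change 0.09, 95% interval -0.15 to 0.32, adjusted p = 0.69). Both genes had overlapping groups and intervals that span at most 0.899-fold to 1.25-fold.

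Dsp, desmoplakin, the link to keratin filaments, was more variable. It measured 448, 361 and 398 FPKM in the control libraries, against 523, 384 and 423 in the Znf750_cKO libraries (log2 change 0.13, 95% interval -0.20 to 0.47, limma adjusted p = 0.66). Replicate 1 was the highest and replicate 2 the lowest of both groups. The ratio of Dsp to Jup was 1.21 ± 0.14 in control and 1.27 ± 0.19 in Znf750_cKO. Dsp overlaps the antisense gene Gm10129 by 499 exon bases and Dsg2 overlaps Gm16090 by 330, and with the strand of counting not stated their reads cannot be told apart; these antisense genes stood at 0.61 FPKM or less.

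**Figure D3:**
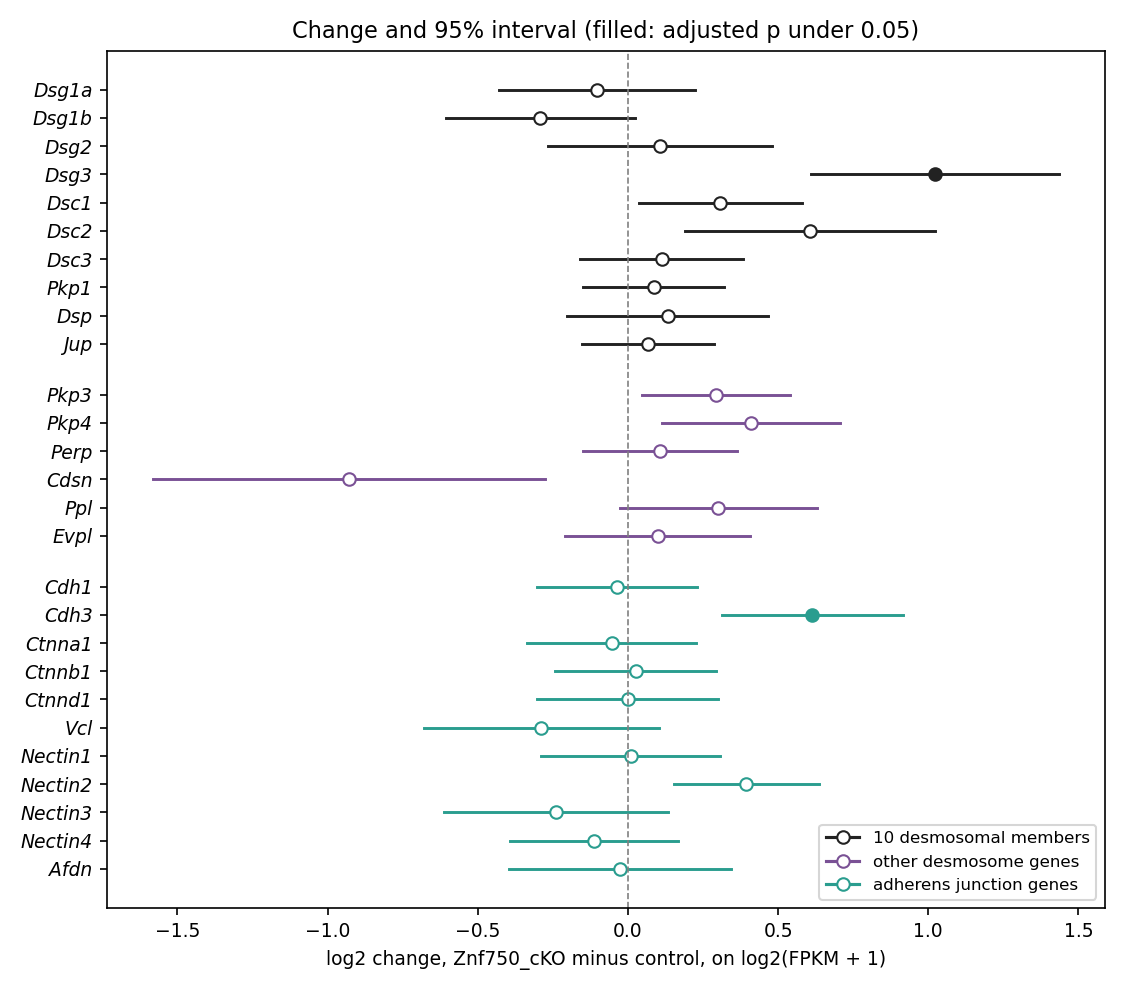
Log2 change (Znf750_cKO minus control, on log2(FPKM + 1)) with its 95% interval for the 10 desmosomal genes, 6 other tested desmosome genes and 11 adherens junction genes; filled points passed an adjusted p under 0.05. Dsg3 (1.02) and Cdh3 (0.61) are the filled points, and the intervals of Pkp1, Dsp, Jup, Dsc3, Dsg1a, Dsg1b and Dsg2 include 0.

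The 7 cadherin genes among the 10 lie in 1 cluster on chromosome 18 (19960930 to 20604521, GRCm38), which spans 644 kb and holds 9 desmosomal cadherin genes. The desmocollins run on the minus strand in the order Dsc3, Dsc2, Dsc1. The desmogleins run away from them on the plus strand in the order Dsg1c, Dsg1a, Dsg1b, Dsg4, Dsg3, Dsg2. Dsg3 (ENSMUSG00000056632, 20510274 to 20547459) thus sits between Dsg4, a desmoglein of hair listed at 0 to 0.17 FPKM, and Dsg2, which did not pass. Pkp1 lies on chromosome 1 (135871395 to 135919207, minus strand), Dsp on chromosome 13 (38151294 to 38198577, plus strand) and Jup on chromosome 11 (100368958 to 100397763, minus strand).

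**Figure D4:**
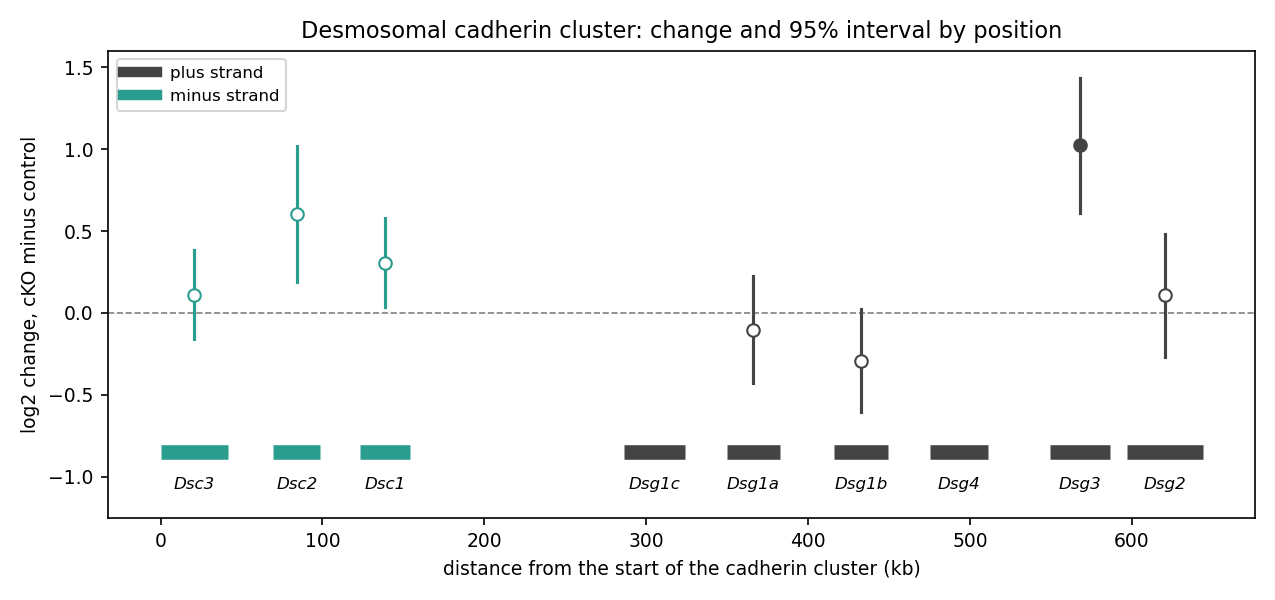
Log2 change with its 95% interval for the 7 tested cadherin genes, plotted by distance (kb) from the start of the chromosome 18 cluster; boxes are the gene spans, coloured by strand. Dsg3, filled, passed the test at 1.02 while its tested neighbours Dsg1b and Dsg2 lie at -0.29 and 0.11; Dsg1c and Dsg4 were too low to test.

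The remaining desmosome genes held no call. Of 9 further genes of the desmosome and its cornified form, 6 were tested, 0 rose and 0 fell by limma, with a median log2 change of 0.20. Of the 6, 3 had an unadjusted p under 0.05, beside 21.3% of all tested genes. Without overlap, 2 were higher and 1 lower, beside 8.28% and 19.7%. Perp, a tetraspan desmosome protein, was the most abundant at 1705 ± 94.1 FPKM in control and 1838 ± 148 in Znf750_cKO (limma adjusted p = 0.641). Pkp3, the plakophilin of all living layers, measured 175, 172 and 204 FPKM in the control libraries, against 232, 217 and 225 in the Znf750_cKO libraries, without overlap (log2 change 0.29, adjusted p = 0.165). Dsg1c, Dsg4 and Pkp2 were under the filter.

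Chosen after its values were seen, corneodesmosin (Cdsn), the glycoprotein added to desmosomes as they become corneodesmosomes, had the one negative change of these 6. It measured 106, 184 and 101 FPKM in the control libraries, against 72.9, 50.7 and 76.1 in the Znf750_cKO libraries. All Znf750_cKO libraries lay below all control libraries, and control replicate 2 stood far above the rest (log2 change -0.93, 95% interval -1.58 to -0.28, limma adjusted p = 0.121).

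Adherens junctions, the classical cadherin contacts that share Jup with desmosomes, were mostly level. Of 11 tested genes 1 rose, 0 fell and 10 did not pass, with a median log2 change of -0.03. Of all tested genes 1.11% rose and 3.1% fell. Without overlap, 2 of the 11 were higher and 0 lower, beside 8.28% and 19.7%. These 2 were Cdh3 and Nectin2 (log2 change 0.39, limma adjusted p = 0.0803). Cdh3, P-cadherin, the classical cadherin of basal cells, rose, with 40.9 ± 6.25 FPKM in control against 62.7 ± 4.40 in Znf750_cKO, a log2 change of 0.61 (limma adjusted p = 0.0433). With any 1 library dropped Cdh3 did not pass (adjusted p from 0.0628 to 0.159), nor with replicate 3 of both groups dropped (0.113), with FPKM scaled to equal sums (0.0689), without trend and robust variances (0.0735) or without the filter on low values (0.173). Ctnnb1, beta-catenin, stood at 616 ± 16.4 and 630 ± 74.8 FPKM, and Cdh1, E-cadherin of all layers, at 181 ± 11.9 and 176 ± 19.1 (adjusted p = 0.941 and 0.91).

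Of 7 keratins that attach to desmosomes 1 rose, beside 1.11% of tested genes, and 6 did not pass. The riser was Krt2, at 0.20 to 0.30 FPKM in control and 172 to 334 in Znf750_cKO (log2 change 7.62, limma adjusted p = 1.36e-05). Krt2 passed the filter on low values only through the Znf750_cKO libraries. Without overlap 2 of the 7 were higher, beside 8.28%: Krt2 and Krt14 (log2 change 0.365, limma adjusted p = 0.136). Krt10 and Krt1, the main suprabasal partners, had adjusted p = 0.58 and 0.687 in limma. Among 12 genes of desmosome cleavage and signalling, 0 rose and 0 fell in the limma fit, with 3 at an unadjusted p under 0.05, beside 21.3% of all tested genes. Of these 3, Ctsl and St14 were higher and Spink5 lower (log2 change -0.51, limma adjusted p = 0.082). Without overlap, 2 of the 12 were higher and 3 lower, beside 8.28% and 19.7%. Klk7, a kallikrein that cleaves corneodesmosomes, averaged 190 ± 57.8 FPKM in control against 214 ± 38.8 in Znf750_cKO. The lysosomal protease Ctsl stood at 138 ± 16.2 and 204 ± 27.4 FPKM, without overlap (log2 change 0.56, adjusted p = 0.0639). After median-ratio scaling, Ctsl and the membrane protease St14 passed, at adjusted p = 0.0498 and 0.0484.

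Markers of the basal layer, where Dsg3 is made, did not all move alike. Of 7 (Krt5, Krt14, Krt15, Itga6, Itgb4, Col17a1, Trp63), 1 rose and 6 did not pass, beside 1.11% of tested genes that rose. A positive change was found in 6, beside 37.8%, and 4 were higher without overlap, beside 8.28%. The riser was Itgb4, a hemidesmosomal integrin chain, with a log2 change of 0.67 (limma adjusted p = 0.0441). Itgb4 did not pass with any 1 library dropped (adjusted p from 0.056 to 0.159) or with replicate 3 of both groups dropped (0.13). It also missed the threshold after scaling to equal sums (0.0678), after quantile normalization (0.0599), without trend and robust variances (0.0741) and without the filter on low values (0.172). With the replicate number as a block 3 of the 7 rose by limma: Itgb4 (adjusted p = 0.035), Itga6 (0.0443, against 0.0911 without the block) and Col17a1 (0.048, against 0.105). Krt5 had a log2 change of 0.02 and Krt15 one of -0.33 (adjusted p = 0.938 and 0.295). The summed FPKM of the 7, nearly all from Krt5, Krt14 and Krt15, ranged from 13920 to 15570 in control and from 15530 to 16710 in Znf750_cKO. The part of cell makeup in the Dsg3 result was not tested.

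Relative to Itgb4 and Trp63, the markers it was divided by, Dsg3 was also higher within a library. Its ratio to Itgb4 was 0.558, 0.504 and 0.520 in control and 0.672, 0.628 and 0.751 in Znf750_cKO, 1.29-fold higher on average. Its ratio to Trp63, the basal transcription factor p63, was 0.306, 0.291 and 0.350 in control and 0.561, 0.453 and 0.567 in Znf750_cKO, 1.67-fold higher. Neither ratio overlapped between groups, and both were chosen after the values were seen and carry no test. The ratios restate that Dsg3 had a larger ratio of means (2.055) than Itgb4 (1.59) and Trp63 (1.22). Dsg3 per Cdh3, likewise not a planned ratio, was 1.35-fold higher on average, also without overlap and without a test.

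**Figure D5:**
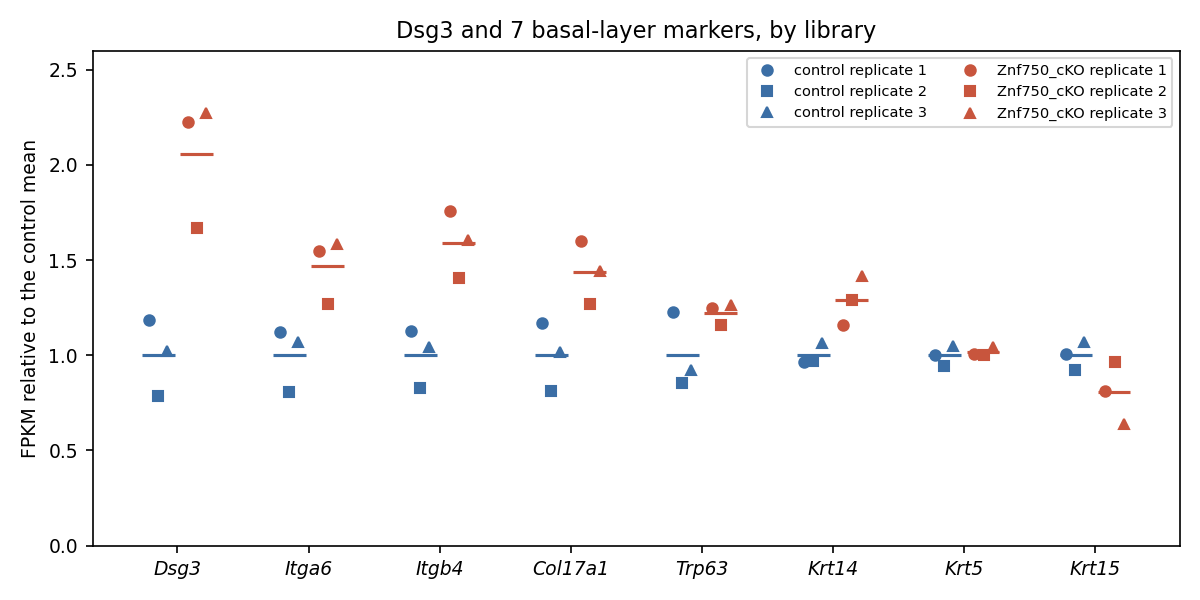
FPKM of Dsg3 and of 7 basal-layer markers in each library relative to the gene's control mean, with control in blue, Znf750_cKO in red and bars at group means. Dsg3 reaches 1.67 to 2.27 times its control mean in Znf750_cKO, Itga6, Itgb4 and Col17a1 reach 1.27 to 1.76 times, Krt14 1.16 to 1.42 and Trp63 1.16 to 1.26 times, Krt5 stays at 1.00 to 1.04 times, and Krt15 lies at 0.639 to 0.968 times.

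No suprabasal marker passed: of 6 tested (Krt1, Krt10, Krtdap, Sbsn, Lor, Flg) 0 rose and 0 fell by limma, with 1 at an unadjusted p under 0.05, beside 21.3% of tested genes. That one was Flg, filaggrin of the granular layer, at 1656 ± 565 FPKM in control and 903 ± 135 in Znf750_cKO, lower without overlap (log2 change -0.83, limma adjusted p = 0.102). Dsc1 per Krt10 was 0.0131, 0.00896 and 0.0103 in control and 0.0126, 0.00854 and 0.0126 in Znf750_cKO, and the groups overlapped in most of their range. Krt10 was the one suprabasal marker used as a denominator. Dsg1a per Krt10 was 0.0317, 0.0211 and 0.0263 in control and 0.0223, 0.0174 and 0.0215 in Znf750_cKO, again with overlap.

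Markers of other cells differed in part, beside 1.11% of all tested genes that rose and 3.1% that fell. Leukocyte markers were lower: of 4 tested of 6, Cd74, Tyrobp and Ptprc fell by limma, and the summed list ranged from 50.7 to 81.1 FPKM in control and from 7.90 to 12.1 in Znf750_cKO. Cd3g, the remaining tested one, was lower without overlap but did not pass (limma adjusted p = 0.157). Of 7 hair follicle markers Lhx2 rose, Krt79 and Krt71 fell and 4 did not pass, Krt17 being the most abundant, with sums of 1031 to 1460 and 990 to 1082 FPKM. Krt71 passed the filter on low values only through the control libraries, and stood at 0.38 to 0.63 FPKM in Znf750_cKO. The Merkel cell list had Krt8 and Krt18 rising. Krt20 did not pass and was lower without overlap (log2 change -0.35, limma adjusted p = 0.319), having passed the filter only through the control libraries. Atoh1, a defining factor, stood at 0.5 FPKM or less in each library. Sums of melanocyte markers (71.3 to 126 and 89.7 to 103 FPKM, led by Dct), fibroblast markers (133 to 158 and 114 to 170, nearly all Dcn) and endothelial and muscle markers (9.80 to 26.5 and 5.65 to 31.7, nearly all Pecam1) overlapped, with no member past the threshold. Blood markers summed to 7.86 to 27.5 FPKM in control and 2.87 to 6.76 in Znf750_cKO, led by Hbb-bs (limma adjusted p = 0.0891, and 0.0275 without replicate 3 of both groups). With 1 library dropped, Cd74, Tyrobp and Krt8 passed in all 6 fits, Lhx2 and Krt71 in 5, Ptprc in 3 and Krt79 and Krt18 in 1. Without the filter on low values Lhx2 (adjusted p = 0.0613), Krt71 (0.0549), Ptprc (0.1), Krt79 (0.0864) and Krt18 (0.107) did not pass by limma, and without replicate 3 of both groups Ptprc did not (0.0522). The part of these cells in the desmosomal values was not tested.

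Libraries of a group differed in a shared way. Control replicate 2 was the lowest control library in 7 of the 10 genes and the highest in 0. Znf750_cKO replicate 1 was the highest of its group in 8, and Znf750_cKO replicate 3 the lowest in 6: Dsg1a, Dsg1b, Dsc1, Dsc2, Dsc3 and Jup. Over the 6 libraries, Dsg2, Pkp1 and Dsp varied together, with Pearson r of 0.93 for Dsg2 with Pkp1 and 0.91 for Dsg2 with Dsp, while Dsg3 correlated with Dsg1a at -0.42. These are descriptions over 6 libraries that fall into 2 groups and differ in depth. Znf750_cKO replicate 1 was the deepest library, at an estimated 35.3 M reads, and control replicate 2 the shallowest, at 21.4 M. The part of depth in these orders was not tested.

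Of 11930 other genes compared, the one most like Dsg3 over the 6 libraries was Itga3, a basal laminin-receptor integrin chain (Pearson r of log2(FPKM + 1) = 0.999). For the other members it was Enox2 for Dsg1a, Cnot10 for Dsg1b, Ist1 for Dsg2, Rnps1 for Dsc1, Dcaf12 for Dsc2, Kif24 for Dsc3, Hr for Pkp1, Fras1 for Dsp and Tmem68 for Jup. Their r values ran from 0.994 to 0.998, and the best match among so many genes over 6 points is high by selection.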

How the data were processed

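The authors deposited FPKM values per the file headers, 1 per Ensembl gene and library. The submitters' processing notes list STAR 2.5.2a and RSEM 1.2.28, the trimmers cutadapt 1.15 and Trim Galore 0.4.5, DESeq2, FastQC 0.11.8 and MultiQC 1.0, with the builds GRCm38 and mm10 but no roles. Annotation release, filters and strand setting: not given in the sources used here. RSEM divides reads that fit several genes, which bears on the Dsg1 copies.

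From these values, limma 3.58.1 (R 4.3.3, statmod 1.5.0; intensity trend, robust variances, group as the only term) was fitted to log2(FPKM + 1) of the 13688 genes with FPKM of at least 1 in at least 3 of 6 libraries, with two-sided p-values and Benjamini-Hochberg adjustment over all of them at 0.05. Fold changes are on the log2(FPKM + 1) scale and understate low genes. "Rose" and "fell" mean a gene past this threshold. The symbol table matched 55141 identifiers. Positions, exon overlaps and shared 100-base stretches come from GENCODE M21 on GRCm38.

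FPKM keep no depth, but for short genes with 1 transcript FPKM times length less 99 bases falls in steps. The depth that put most values within 0.1 read of a whole number (73.4% to 81.8%, 20% by chance) was taken, and reads behind a member use its longest coding transcript. These estimates entered no test.

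Libraries with the same replicate number deviated together from their group means, at correlations of 0.31, 0.17 and 0.48 for numbers 1, 2 and 3, all above the limit of 0.1. The pairing was not clean, since control replicate 1 with Znf750_cKO replicate 2 also gave 0.24. The other unmatched pairs ran from -0.39 to -0.042. What a number marks is not in the labels. A second fit took the number as a block.

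The members, lists, markers and tests were chosen with earlier results of these data known. Named are all 10 members and Zfp750, each changed gene and the 2 most abundant of each of the 4 related lists, each changed gene and the most abundant of each marker list, and the gene most correlated with each member among those with a symbol and a mean FPKM of at least 2. Alternatives changed the pseudocount, filter, scaling, variance model, block and libraries, and, chosen after seeing the data, summed the Dsg1 copies.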

Additional observations from a re-analysis of the deposited data

How the results depend on the processing

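Dsg3 kept a positive change under each of 18 alternatives (log2 change 0.87 to 1.17, limma adjusted p from 0.0155 to 0.115) and passed in 12. The count of changed members was 0 without a filter on low values, where Dsg3 had an adjusted p of 0.115, and 0 without replicate 3 of both groups, and it ranged from 0 to 1 with 1 library left out. The other 9 members passed in 0 of 159 fits. Their sign turned in 3: Dsg1a when Znf750_cKO replicate 3 was dropped and when replicate 3 of both groups was dropped (0.092), and Dsg2 when control replicate 2 was dropped. With the replicate block Dsg3 had an adjusted p of 0.018, 392 genes changed over all, and no call among the members changed; of the listed genes, Itga6 and Col17a1 passed with it and not in the fit as reported. Summing the Dsg1 copies, chosen after seeing the data, left the count at 1. That fit is 1 of the 12 in which Dsg3 passed, but it does not alter the Dsg3 values (log2 change 1.02, limma adjusted p = 0.0239).

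The count of adherens junction genes was 0 without a filter, with values scaled to equal sums, without trend and robust variances, and without replicate 3 of both groups, and 0 in each fit without 1 library. The cleavage list had 2 genes past the threshold after median-ratio scaling. Over all genes 85 changed without a filter, and 100 to 356 with 1 library left out. The causes were not tested.

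Among genes not past the threshold, signs turned after median-ratio scaling for Cdh1 (0.051), Dcn (0.049) and Krt17 (0.027), after quantile normalization for Krt1 (-0.0095) and Krt5 (-0.053), and without replicate 3 of both groups for Cdh1 (0.045), Dcn (0.21) and Dct (-0.0008). With 1 library left out the log2 change ran from -0.18 to 0.045 for Dsg1a, from -0.032 to 0.23 for Dsg2, from -0.12 to 0.039 for Cdh1, from -0.060 to 0.11 for Ctnnb1, from -0.16 to 0.16 for Dcn, from -0.089 to 0.34 for Dct, from -0.17 to 0.040 for Krt17, from -0.015 to 0.061 for Krt5 and from -0.75 to 0.41 for Pecam1. The group difference in the log2 ratio of Dsg3 to summed Dsg1 was 1.17, and 0.95 to 1.38 with each library left out in turn. For Dsc3 to Dsc1 it was -0.20 (-0.30 to -0.12), and for Dsc2 to Dsc1 0.53 (0.43 to 0.73). The log2 difference of Dsp to Jup turned from 0.067 to -0.041 without Znf750_cKO replicate 1. Read depth is estimated, not given.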
